A study of Homo sapiens with 9 samples.

Results

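The Src-family kinases SRC, YES1, LYN, FYN and LCK, the related FES and FER kinases, and the enzymes CSK and PTPN6 that hold such kinases in check were followed over 9 microarrays of HCT116 cells. HCT116 is an established human colon carcinoma line. All probe sets of the HG-U133 Plus 2.0 array that are annotated to 1 of these 9 genes were taken, which gave 26 of the 54675 probe sets. Of these, 19 passed a filter on dim values and were tested, and each of the 9 genes had at least 1 probe set among them. To pass, a probe set had to be at least as bright as the median probe set of the same array on 2 or more arrays of any group, and 29977 probe sets of the whole array did so.

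The study asked which genes change when either isoform of the tumour suppressor candidate TIG1 (RARRES1, retinoic acid receptor responder 1) is induced. TIG1A cells carried pSwitch, which encodes a regulatory protein activated by mifepristone (MFP), together with a plasmid for the inducible 294 amino acid TIG1A, with Myc and His tags according to the labels and in a V5 vector according to the methods. TIG1B cells carried pSwitch and the corresponding plasmid for the 228 amino acid TIG1B, tagged in the same way. Control cells carried pSwitch and the empty pGene/V5 vector. All cells, controls included, received 5 nM MFP for 24 h, with 3 arrays per group. Each group is a stable clone of its own and no arrays of cells without MFP were included, so effects of an isoform and lasting differences between clones cannot be told apart. The methods describe the 3 samples of a clone as independent, so p-values measure the spread between samples of 1 clone and not between clones.

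Src-family kinases are membrane-anchored tyrosine kinases that pass signals from integrins and growth factor receptors to the cytoskeleton and to proliferation. CSK keeps them inactive by phosphorylating a tyrosine in their carboxyl-terminal tail, and PTPN6 (SHP-1) is a phosphatase with SH2 domains that removes phosphate from tyrosine kinases and their substrates. FES and FER form a separate family of cytoplasmic tyrosine kinases, with an F-BAR domain that binds membranes, and are known in adhesion and in cytokine signalling. SRC, YES1, FYN and FER are made in many tissues, whereas LCK is best known in T cells, LYN in B cells and myeloid cells, and FES and PTPN6 in blood cells, PTPN6 also having a start site used in epithelium.

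The results turn on FES, LCK and PTPN6, and the sequences before their start sites are shown because LCK and PTPN6 each have 2 annotated starts in the table used, and no probe set is assigned to a start. Each line gives the 250 bases before a start from RefSeq (GRCh38.p14, plus strand), with the region as the genome browser numbers it. Sequences were matched for 7 of the 9 members. Capitals mark AGGAAG, the core bound by ETS factors, or GGGCGG, the GC box, on either strand, and the motifs were chosen after the sequences had been seen.
FES, chr15:90884796-90885045: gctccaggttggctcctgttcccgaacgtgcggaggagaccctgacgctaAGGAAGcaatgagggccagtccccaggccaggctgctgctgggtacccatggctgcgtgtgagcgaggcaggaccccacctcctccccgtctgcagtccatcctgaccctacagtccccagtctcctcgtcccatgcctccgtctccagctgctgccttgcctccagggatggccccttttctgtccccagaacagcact
LCK distal start, chr1:32251015-32251264: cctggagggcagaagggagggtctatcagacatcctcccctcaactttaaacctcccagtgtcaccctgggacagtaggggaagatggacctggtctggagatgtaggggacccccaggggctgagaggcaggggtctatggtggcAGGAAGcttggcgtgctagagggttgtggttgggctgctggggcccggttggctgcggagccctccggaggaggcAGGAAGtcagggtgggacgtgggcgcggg
LCK proximal start, chr1:32273871-32274120: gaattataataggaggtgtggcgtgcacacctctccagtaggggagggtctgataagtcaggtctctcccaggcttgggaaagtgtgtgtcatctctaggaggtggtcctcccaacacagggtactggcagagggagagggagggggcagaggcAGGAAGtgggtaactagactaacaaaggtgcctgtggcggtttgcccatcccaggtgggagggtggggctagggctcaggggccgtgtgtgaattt
PTPN6 first start, chr12:6946327-6946576: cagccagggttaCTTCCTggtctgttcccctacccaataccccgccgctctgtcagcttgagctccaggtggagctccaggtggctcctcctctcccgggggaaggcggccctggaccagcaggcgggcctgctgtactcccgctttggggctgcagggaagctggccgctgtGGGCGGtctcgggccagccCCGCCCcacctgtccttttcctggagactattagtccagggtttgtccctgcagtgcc
PTPN6 second start, chr12:6951106-6951355: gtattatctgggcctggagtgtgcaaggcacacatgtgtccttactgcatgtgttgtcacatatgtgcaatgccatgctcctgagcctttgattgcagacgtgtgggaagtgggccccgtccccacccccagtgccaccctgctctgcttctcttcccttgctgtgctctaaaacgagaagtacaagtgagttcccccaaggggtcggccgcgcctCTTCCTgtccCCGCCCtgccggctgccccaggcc

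The FES window held 1 ETS core and no GC box, and it lies inside the annotated span of the gene. The distal LCK window held 2 ETS cores and the proximal one 1, with no GC box in either. Both PTPN6 windows held 1 ETS core, beside 2 GC boxes at the first start and 1 at the second. Over all 35116 windows of this length, 28.7% held AGGAAG and 42.6% held GGGCGG, so both motifs are common. A match is a description of the letters and not a measured binding site.

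The induced gene was checked first. The RARRES1 probe set 206392_s_at read 66754, 58452 and 63438 on the TIG1A arrays, 44513, 37082 and 36413 on the TIG1B arrays, and 4.65, 2.90 and 5.17 on the control arrays, so it was high in both lines and near the floor in control cells. All values are Affymetrix signal intensities that the authors scaled to a common trimmed mean of 500, and the medians of the arrays lay between 59.9 and 73.9. Of 8 colon epithelial markers, 5 reached the array median on at least 2 of 3 arrays in TIG1A cells, 6 in TIG1B cells and 5 in control cells, and EPCAM averaged 21242 in TIG1A, 20935 in TIG1B and 20443 in control cells. Of the 6 kept markers, keratin KRT19 was lower in both lines on its most intense probe set. The log2 fold change was −0.66 in each (limma adjusted p = 0.0267 in TIG1A and 0.0435 in TIG1B). The other KRT19 probe set was dim and gave −0.68 in TIG1A and 0.78 in TIG1B (limma adjusted p = 0.605 and 0.618). The cadherin CDH1 was higher in TIG1A on its most intense probe set (0.59, limma adjusted p = 0.0481). The other CDH1 probe set did not share this rise, at 0.076 in TIG1A (limma adjusted p = 0.926) with TIG1A and control overlapping.

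Of the 19 tested probe sets, 2 changed in TIG1A cells against control cells (limma, Benjamini-Hochberg adjusted p under 0.05 over all 29977 probe sets), FES upwards and LCK downwards. LCK was below the array median on all TIG1A arrays and entered the test only through TIG1B and control, where it was higher. The share of all tested probe sets that passed in this comparison was 6.06%, so 2 of 19 members is close to that background. In TIG1B cells 1 of the 19 changed, FES again, against 1.78% of all probe sets. TIG1A and TIG1B differed at 1 of the 19, LCK, against 0.417% of all, with the same limit on LCK. At an unadjusted p under 0.05, limma passed 4 of 19 in TIG1A, 3 of 19 in TIG1B and 3 of 19 between both lines (21.1%, 15.8% and 15.8%), against 25.0%, 18.5% and 13.3% of all probe sets. The median log2 fold change over the 19 was −0.14 in TIG1A and 0.14 in TIG1B, where that over all probe sets was −0.044 in TIG1A and −0.030 in TIG1B. Both comparisons use the same 3 control arrays.

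FES gave the clearest differences. FES is a cytoplasmic tyrosine kinase of myeloid and other cells, and its only probe set on the array is 205418_at, for a gene at chr15:90884504-90895776 (GRCh38). It read 2598, 2128 and 2102 on the TIG1A arrays, 1364, 1268 and 1422 on the TIG1B arrays, and 709, 628 and 620 on the control arrays. No pair of the 3 groups overlapped, with TIG1A highest, TIG1B next and control lowest. FES was 3.48-fold higher in TIG1A cells than in control cells (log2 fold change 1.80, 95% interval 1.47 to 2.12, limma adjusted p = 0.00532). It was 2.07-fold higher in TIG1B cells (log2 fold change 1.05, 95% interval 0.73 to 1.38, limma adjusted p = 0.0218). The step between TIG1A and TIG1B was 0.75 on the log2 scale, with a 95% interval of 0.42 to 1.07, and did not pass the adjusted threshold (limma adjusted p = 0.0907). The adjusted p in TIG1A stayed between 2.99e-05 and 0.0409 over 19 alternative settings, whereas that in TIG1B lay between 0.00155 and 0.125 and was under 0.05 in 8 of them. Without TIG1A replicate 2 the adjusted p in TIG1B was 0.0524, without TIG1B replicates 1, 2 and 3 it was 0.0741, 0.0727 and 0.0750, and without control replicates 2 and 3 it was 0.0770 and 0.0535. FES is in a table that the study chose on these arrays, so its direction here is no independent evidence. In bulk RNA, a change in the share of cells that make a transcript and a change in its amount per cell cannot be told apart.

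**Figure D1:**
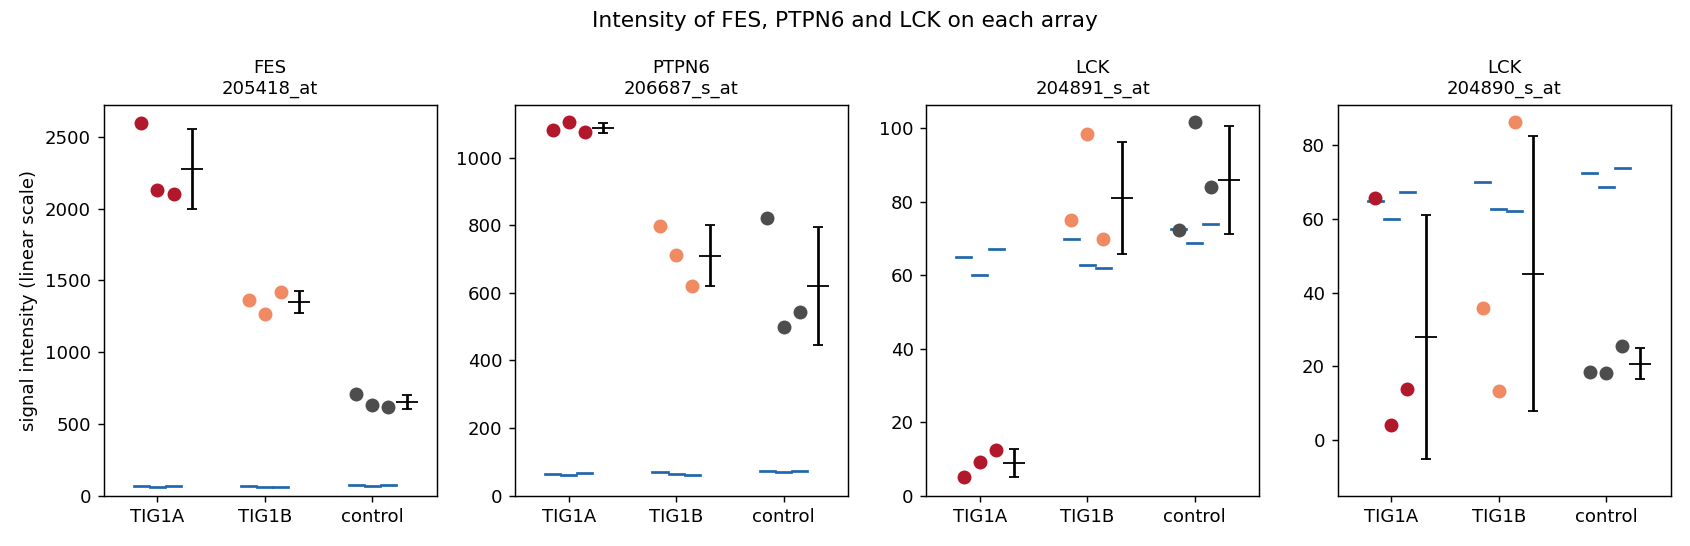
Signal intensity (linear axis) of FES, PTPN6 and both LCK probe sets on the TIG1A, TIG1B and control arrays; each dot is 1 array, the black bar is the mean ± SD (n = 3) and the blue tick is the median of that array. FES lies between 2102 and 2598 in TIG1A cells, 1268 and 1422 in TIG1B cells and 620 and 709 in control cells, while the LCK probe sets lie between 4.28 and 101.5 and the array medians between 59.9 and 73.9.

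FER, the other member of that family, was read by 3 probe sets. Probe set 206412_at read 490, 610 and 1478 on the TIG1A arrays, 480, 679 and 1011 on the TIG1B arrays, and 319, 432 and 479 on the control arrays. Both lines lay above control without overlap, but the spread within the lines was wide, and neither log2 fold change passed (0.91, adjusted p = 0.246 in TIG1A; 0.77, adjusted p = 0.397 in TIG1B). Probe set 227579_at read 939, 994 and 1047 in TIG1A cells, 1165, 1149 and 1165 in TIG1B cells, and 1073, 1011 and 1079 in control cells, and only TIG1B lay clear of control, above it. Probe set 232064_at read 503, 632 and 564 in TIG1A cells, 568, 558 and 627 in TIG1B cells, and 739, 587 and 820 in control cells. The log2 fold changes of these 2 probe sets lay between −0.33 and 0.14, and none passed.

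LCK, the kinase that starts T cell receptor signalling, was dim in every group. Probe set 204891_s_at (gene at chr1:32251265-32286165, GRCh38) read 4.99, 9.16 and 12.4 on the TIG1A arrays, 74.9, 98.4 and 69.8 on the TIG1B arrays, and 72.3, 101.5 and 83.9 on the control arrays. TIG1A lay below every array of the other groups, while TIG1B and control overlapped. All 3 TIG1A values were below the median of their array, so the fold is a lower bound, at least 1.33-fold lower in TIG1A than in control cells and at least 1.25-fold lower than in TIG1B cells. The limma log2 fold change on the measured values was −3.36 against control (95% interval −4.13 to −2.59, adjusted p = 0.00713) and −3.27 against TIG1B (SE 0.33, adjusted p = 0.0230). In TIG1B against control it was −0.087 (95% interval −0.85 to 0.68, adjusted p = 0.913).

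The second LCK probe set, 204890_s_at, did not reach the filter and was not tested. It read 65.7, 4.28 and 13.8 in TIG1A cells, 35.8, 13.4 and 86.4 in TIG1B cells, and 18.4, 18.3 and 25.5 in control cells, with all groups overlapping. The control values of this second probe set were all below the median of their array. It could therefore not show a fall from control and does not decide on the difference of the first. With a filter at the 75th percentile LCK was not tested, and the difference from TIG1B was lost without TIG1A replicate 2 (adjusted p = 0.0941) and without TIG1B replicates 1, 2 or 3 (adjusted p = 0.0986, 0.0931 and 0.0635).

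Markers of blood cells, in which LCK is best known, are given beside it. Of 12 measured markers, 2 reached the array median on at least 2 of 3 arrays in TIG1A cells, 3 in TIG1B cells and 6 in control cells. Their summed intensity ranged over 922 to 1196 in TIG1A cells, 1014 to 1299 in TIG1B cells and 1151 to 1699 in control cells. CD79A was the brightest of them and averaged 517 in TIG1A, 499 in TIG1B and 600 in control cells. The T cell receptor subunit CD3E averaged 38.8 in TIG1A, 63.7 in TIG1B and 68.3 in control cells (below the array median on all TIG1A arrays, at least 1.06-fold lower there than in control, limma adjusted p = 0.0761). The pan-leukocyte phosphatase PTPRC averaged 9.44 in TIG1A, 25.9 in TIG1B and 47.9 in control cells and was not kept by the filter, nor were CD3D, CD3G, MS4A1, CD14 and LYZ. None of the 12 was at 0, and none of the 6 that were kept passed in either line (limma; at an unadjusted p under 0.05, 2 in TIG1A and 0 in TIG1B). The markers did not all go 1 way. Of the 6, 2 had a log2 fold change above 0 in TIG1A, CD79B (0.40, limma adjusted p = 0.825) and CD2 (0.18, limma adjusted p = 0.912). The part of these levels in the LCK and PTPN6 results was not tested.

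LYN, a kinase that both activates and restrains signalling in B cells and myeloid cells, was read lower in both lines by all 3 of its probe sets, and none passed the adjusted threshold. Probe set 210754_s_at read 1240, 1111 and 1128 on the TIG1A arrays, 954, 1107 and 1085 on the TIG1B arrays, and 1526, 1353 and 1406 on the control arrays. Neither line overlapped control. The log2 fold change was −0.30 in TIG1A (adjusted p = 0.197) and −0.45 in TIG1B (95% interval −0.75 to −0.15, adjusted p = 0.128). Probe set 202626_s_at read 631, 667 and 681 in TIG1A cells, 492, 623 and 693 in TIG1B cells, and 1058, 756 and 699 in control cells, again without overlap of either line with control. For 202625_at the values were 1657, 1094 and 956 in TIG1A cells, 1627, 1165 and 1095 in TIG1B cells, and 1641, 1493 and 1491 in control cells, and these overlapped. Over the 3 probe sets the log2 fold changes ranged from −0.36 to −0.30 in TIG1A and from −0.46 to −0.27 in TIG1B. Between TIG1A and TIG1B the log2 differences were −0.087 to 0.15 and none passed, although the TIG1A arrays lay above those of TIG1B without overlap on 210754_s_at. With the 75th percentile filter that probe set passed in TIG1B against control (limma adjusted p = 0.0405).

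SRC, the founding kinase of the family, had 7 probe sets, of which 3 were tested. The brightest, 213324_at, read 405, 266 and 328 in TIG1A cells, 496, 349 and 398 in TIG1B cells, and 508, 496 and 370 in control cells. TIG1A overlapped control at its highest array, and the log2 fold change was −0.47 (95% interval −0.98 to 0.049, adjusted p = 0.239), with −0.14 in TIG1B (95% interval −0.66 to 0.37, adjusted p = 0.767). The other 2 tested probe sets (1558211_s_at and 221284_s_at) ranged from 23.3 to 249.5 over the 9 arrays with all groups overlapping. The 4 that failed the filter (1558210_at, 1565080_at, 1565082_x_at and 221281_at) ranged from 1.34 to 89.2.

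YES1, a widely made Src-family kinase, did not pass in either line on either of its tested probe sets. Probe set 202932_at read 5235, 5511 and 4772 in TIG1A cells, 5439, 5947 and 5622 in TIG1B cells, and 5681, 5673 and 6029 in control cells. TIG1A lay below control there without overlap, with a log2 fold change of −0.17 in TIG1A (95% interval −0.45 to 0.12, adjusted p = 0.432). Probe set 202933_s_at read 6765, 6678 and 6016 in TIG1A cells, 6739, 8596 and 7169 in TIG1B cells, and 5612, 6600 and 6493 in control cells. For that probe set TIG1B lay above control without overlap, by a log2 fold change of 0.26 that did not pass (95% interval −0.08 to 0.60, adjusted p = 0.386). The third YES1 probe set, 210917_at, failed the filter. It read 1.63, 26.1 and 9.58 in TIG1A cells, 38.3, 5.07 and 21.8 in TIG1B cells, and 31.3, 46.8 and 60.8 in control cells, so TIG1A lay below control without overlap, at values under the median of every array.

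FYN, which acts beside SRC and YES1 in many cells, was tested on 4 probe sets. The most intense of them, 210105_s_at, read 881, 901 and 955 in TIG1A cells, 1015, 1019 and 1058 in TIG1B cells, and 933, 778 and 944 in control cells. TIG1B lay above control without overlap, but the log2 fold change of 0.23 did not pass (adjusted p = 0.395). The 4 probe sets gave log2 fold changes of −0.40 to 0.59 in TIG1A and −0.36 to 0.28 in TIG1B, with both signs in each line, and none passed. The upper end in each line came from 243006_at, which was below the array median on all TIG1B and control arrays. It entered the test only through TIG1A, where it was highest, so no fold is given for it and its log2 values do not measure a change. The remaining FYN probe set, 1559101_at, failed the filter and ranged from 5.20 to 61.0 with all groups overlapping.

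**Figure D2:**
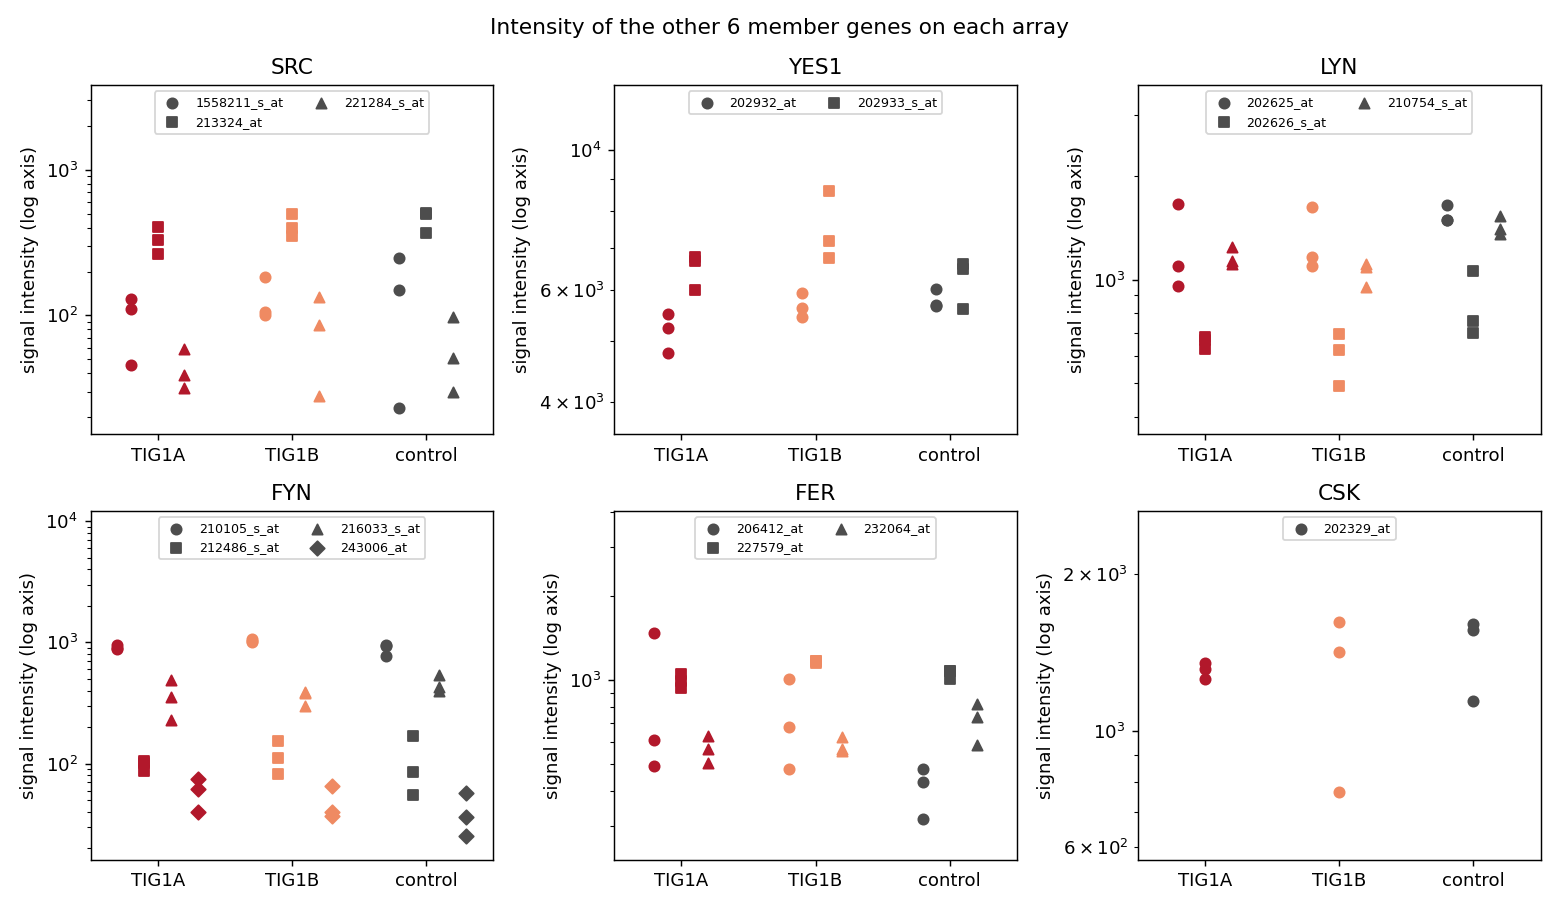
Signal intensity (log axis) of the tested probe sets of SRC, YES1, LYN, FYN, FER and CSK in TIG1A, TIG1B and control cells; each mark is 1 array and its shape gives the probe set. LYN 210754_s_at lies between 954 and 1240 in the TIG1A and TIG1B cells and between 1353 and 1526 in control cells, whereas the groups overlap for SRC and CSK.

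Of the brakes, neither PTPN6 nor CSK passed the adjusted threshold in either line. Its only probe set, 206687_s_at (gene at chr12:6946577-6961316, GRCh38), read 1082, 1105 and 1077 on the TIG1A arrays, 799, 712 and 620 on the TIG1B arrays, and 820, 498 and 542 on the control arrays. TIG1A lay above all arrays of the other groups, and TIG1B and control overlapped. PTPN6 was 1.80-fold higher in TIG1A than in control cells, at a log2 fold change of 0.85 (95% interval 0.37 to 1.32, limma adjusted p = 0.0543). The log2 fold change was 0.22 in TIG1B (95% interval −0.26 to 0.70, adjusted p = 0.603), and TIG1A exceeded TIG1B by 0.62 (95% interval 0.15 to 1.10, adjusted p = 0.268). Control replicate 1 read 820 where the other controls read 498 and 542, and without it the log2 fold change in TIG1A was 1.07 with an adjusted p of 0.0143. With 1 value per gene over 13407 genes the same log2 fold change also passed (limma adjusted p = 0.0441). The study names PTPN6 in its discussion among genes upregulated in TIG1A-expressing cells, from these same arrays, so its direction here is no independent evidence.

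For CSK, the kinase that inactivates Src-family members, probe set 202329_at read 1257, 1316 and 1350 in TIG1A cells, 766, 1420 and 1618 in TIG1B cells, and 1603, 1560 and 1141 in control cells. The groups overlapped. Its log2 fold change was −0.12 in TIG1A (95% interval −0.78 to 0.54, adjusted p = 0.828) and −0.23 in TIG1B (95% interval −0.89 to 0.43, adjusted p = 0.703), so the intervals take in changes in either direction.

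**Figure D3:**
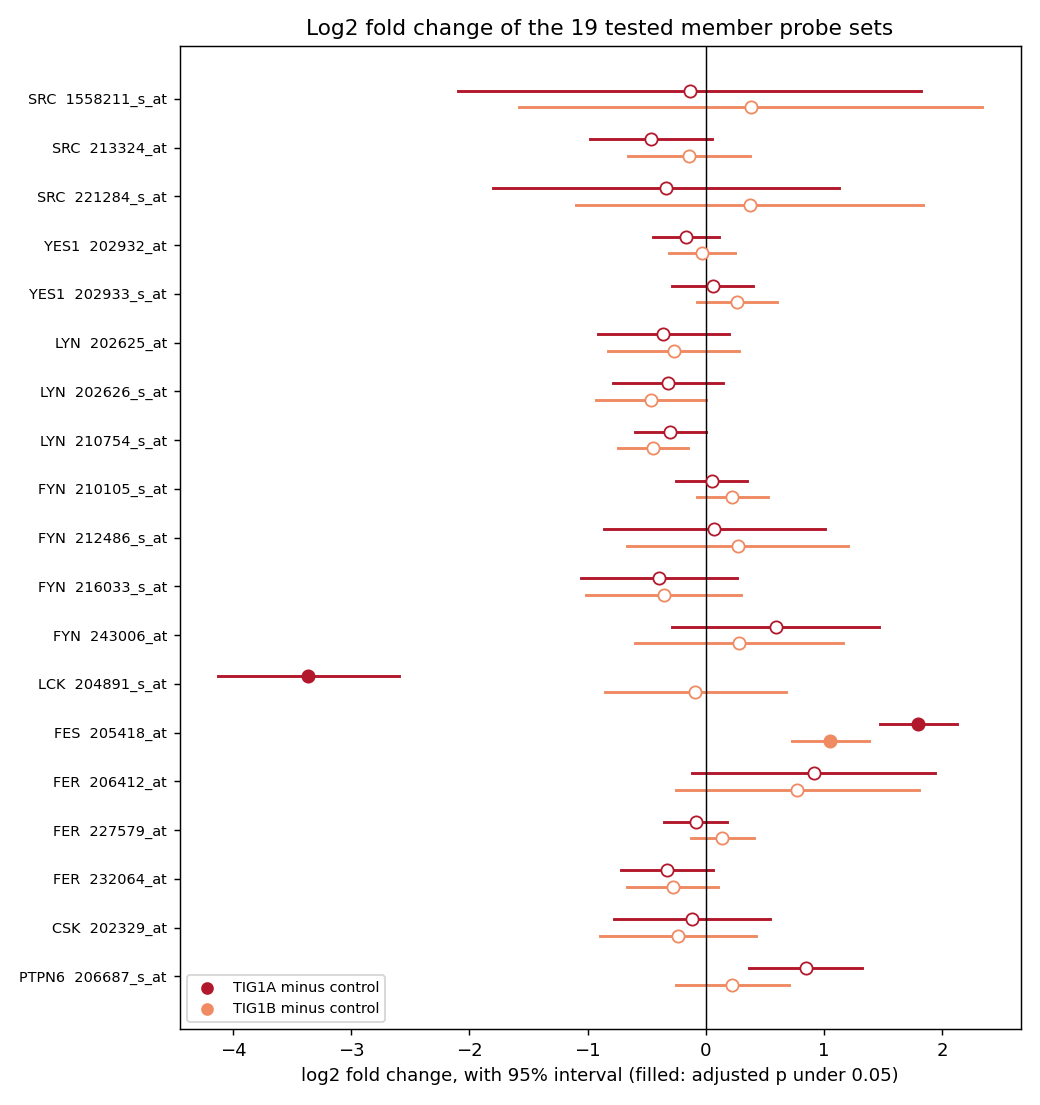
Log2 fold change with its 95% interval for the 19 tested probe sets, TIG1A against control drawn above TIG1B against control; filled marks passed an adjusted p of 0.05 (limma). Filled marks are FES in both lines, at 1.80 and 1.05, and LCK 204891_s_at in TIG1A, at −3.36 on values below the array medians.

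Complete separation of the arrays was counted beside the fitted test. TIG1A and control did not overlap at 7 of 19 member probe sets, or 36.8%, against 30.7% of all tested probe sets. TIG1B and control did not overlap at 8 of 19, or 42.1%, against 24.9%, and TIG1A and TIG1B at 6 of 19, or 31.6%, against 24.1%. Probe sets of a gene share their transcripts, so these counts are not of independent members.

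The other genes of the pathway were taken from lists by role, 1 probe set per gene. Of the 6 other Src-related kinases, 5 were kept and none changed in either line (limma, 0 of 5, and 0 at an unadjusted p under 0.05). The epithelial kinase FRK averaged 181 in TIG1A, 117 in TIG1B and 106 in control cells, at a log2 fold change of 0.85 in TIG1A (adjusted p = 0.228). Of 15 other brakes, 13 were kept and none passed in either line (3 did at an unadjusted p under 0.05 in each, where 25.0% of all probe sets in TIG1A and 18.5% in TIG1B did). CBLB, a ubiquitin ligase that marks active tyrosine kinases, averaged 363 in TIG1A, 284 in TIG1B and 191 in control cells (log2 fold change 0.95 in TIG1A, adjusted p = 0.0591). LIME1, a membrane adaptor that binds CSK, averaged 191 in TIG1A, 135 in TIG1B and 79.2 in control cells (log2 fold change 1.36 in TIG1A, adjusted p = 0.0550). The brakes did not all go the same way. LRIG1 averaged 119 in TIG1A, 237 in TIG1B and 165 in control cells. Its log2 fold change was −0.47 in TIG1A and 0.49 in TIG1B (limma adjusted p = 0.265 and 0.328). CBL averaged 1707 in TIG1A, 2462 in TIG1B and 1812 in control cells. Its log2 fold change was −0.068 in TIG1A and 0.46 in TIG1B (limma adjusted p = 0.830 and 0.201). Of the 6 phosphatases that can activate Src-family kinases, 4 were kept and none passed (unadjusted, 1 in TIG1A and 0 in TIG1B), with log2 fold changes of −0.31 to 0.69 in TIG1A for PTPRF and PTPRE at the ends. Of 15 other cytoplasmic tyrosine kinases, 10 were kept and none passed (unadjusted, 2 in each line). TNK1, a kinase of the ACK family, averaged 379 in TIG1A, 384 in TIG1B and 511 in control cells (log2 fold change −0.43 in TIG1A, adjusted p = 0.152). SYK, a kinase of immune receptors, averaged 58.8 in TIG1A, 66.9 in TIG1B and 89.5 in control cells (log2 fold change −0.56 in TIG1A, limma adjusted p = 0.194). It was dim and reached the array median on 1 TIG1A, 2 TIG1B and 1 control array. The median log2 fold changes of these 4 lists lay between −0.13 and 0.24 in TIG1A and between −0.16 and 0.48 in TIG1B.

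Among 20 substrates and adaptors of these kinases, 19 were kept; in TIG1A 1 passed upwards and 1 downwards, and in TIG1B 1 passed downwards, counts near the shares of all probe sets given earlier (6.06% in TIG1A and 1.78% in TIG1B). PXN (paxillin), a focal adhesion adaptor phosphorylated by SRC and PTK2, read 860, 536 and 890 in TIG1A cells, 719, 529 and 626 in TIG1B cells, and 2024, 2020 and 1742 in control cells on 201087_at. Both lines lay well below control, with log2 fold changes of −1.37 in TIG1A (adjusted p = 0.0199) and −1.63 in TIG1B (adjusted p = 0.0232). The other PXN probe set, 211823_s_at, gave −1.63 and −1.58 in the same lines without passing (adjusted p = 0.0712 and 0.122). ARHGAP35, a RhoA inhibitor that SRC phosphorylates, averaged 2125 in TIG1A, 1855 in TIG1B and 1306 in control cells on its most intense probe set (log2 fold change 0.72 in TIG1A, adjusted p = 0.0471), but its probe sets disagreed in sign. In TIG1A, 229397_s_at gave 2.51 (limma adjusted p = 0.0239). Control was below the array medians there, so the fold is at least 2.79 and the probe set entered the test only through the TIG1 lines. Probe sets 202044_at, 202045_s_at and 202046_s_at gave −0.66, −0.30 and −1.53 in TIG1A without passing (limma adjusted p = 0.288, 0.664 and 0.0782). The adaptor SHC1 averaged 5383 in TIG1A, 7726 in TIG1B and 8152 in control cells (log2 fold change −0.60 in TIG1A, adjusted p = 0.0511). The median over the 19 was −0.041 in TIG1A and 0.060 in TIG1B.

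The genes beside FES and LCK differed in direction from each other. Of the 3 nearest measured genes on each side of FES, the chaperone gene UNC45A passed in TIG1A (log2 fold change 0.93, adjusted p = 0.0143) and reached 0.32 in TIG1B (adjusted p = 0.252). The adjacent FURIN, which encodes a proprotein convertase, had log2 fold changes of −0.15 in TIG1A and −0.73 in TIG1B, where the adjusted p was 0.152. In TIG1A, CRTC3 and HDDC3 lay above control without overlap, at 0.51 and 0.54 (limma adjusted p = 0.0673 and 0.132). BLM and MAN2A2 lay below it without overlap, at −0.41 and −0.40 (limma adjusted p = 0.121 and 0.150). Over all probe sets 6.06% passed in TIG1A. None of the 6 genes around LCK passed in TIG1A; HDAC1, a histone deacetylase, was at 0.088, and DCDC2B, below the median on all TIG1A arrays, was at least 1.16-fold lower (adjusted p = 0.306).

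**Figure D4:**
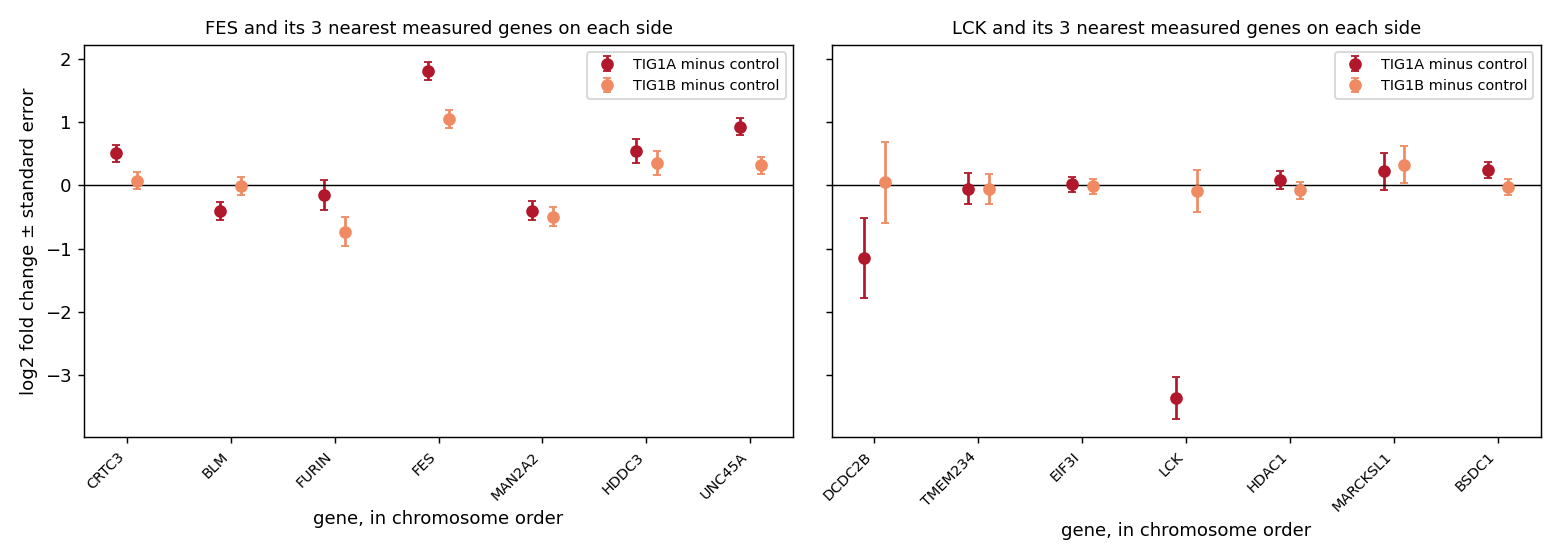
Log2 fold change ± SE against control in TIG1A and TIG1B cells for FES and LCK and the 3 nearest measured genes on each side, in chromosome order. FES stands at 1.80 in TIG1A and UNC45A at 0.93, and LCK at −3.36 in TIG1A on measured values, as is DCDC2B at −1.15, while both are below the array medians in TIG1A.

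Across the 9 arrays, log2 intensities most like that of FES belonged to CDC42SE2 (Pearson r = 0.993), HSPA12A (0.992), FOCAD (0.990), CEMIP2 (0.986) and LHX2 (0.984). For LCK 204891_s_at they were SMC3 (0.989), MRPL35 (0.977), SMURF2 (0.975), PPFIBP1 (0.974) and MAPK8 (0.973). These are the highest values out of all kept probe sets and follow the grouping of the arrays, so they are given as a description without a p. SMC3, a cohesin subunit, averaged 866 in TIG1A, 1041 in TIG1B and 1037 in control cells.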

How the data were processed

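Total RNA of 3 clones was hybridised to HG-U133 Plus 2.0 arrays, 3 per clone. The deposited table holds linear signal intensities, computed by the authors with GeneChip Operating System (GCOS) and scaled to a target of 500, which the trimmed mean of each array met (2% left out at either end). The labels give the MFP dose as 5 nM and the description of the series gives it in µM; the labels were followed. The intensity filter stands in for the Present calls of the methods, and the number of arrays limits the precision.

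The 9 arrays were grouped by their labels. Intensities under 1 were set to 1 and log2 transformed, and limma 3.58.1 in R 4.3.3 was fitted to the 29977 kept probe sets with 1 mean per group (6 residual degrees of freedom). P-values were adjusted by Benjamini-Hochberg over all kept probe sets at 0.05. The code was tested on simulated data. A group below the array median on every array was set at those medians, which makes its fold a lower bound. Alternatives were the filter, scaling, offset, model, replicate block and left-out arrays. Named genes were drawn from all probe sets of the members, and from each list up to 4 genes with the smallest F test p and those called, and for called members the 3 nearest measured genes on each side and the 5 most alike. For lists and neighbours the probe set with the highest mean was used. Members and lists were chosen with earlier results of these data known. Gene names follow the platform annotation, and positions and promoter sequences are from RefSeq.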

Additional observations from a re-analysis of the deposited data

Results flagged for a closer look

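LCK 204891_s_at was singled out because its difference from control was not the same in the lines: TIG1A minus TIG1B was −3.27 on the log2 scale (limma adjusted p = 0.0230), with 4.99, 9.16 and 12.4 on the TIG1A arrays and 74.9, 98.4 and 69.8 on the TIG1B arrays. The TIG1A values are below the medians of their arrays, so the fold is a lower bound, at least 1.25-fold lower than in TIG1B cells. The probe set entered the test only through TIG1B and control, where it was higher. The other LCK probe set overlapped between all groups, but it reached the array median on only 1 TIG1A and 1 TIG1B array, so it cannot decide on this difference. Over 18 alternative settings the adjusted p of this difference lay between 0.0148 and 0.0986 and was under 0.05 in 9.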

How the results depend on the processing

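Member counts moved as follows, set against 2 of 19 called in TIG1A, 1 in TIG1B and 1 between TIG1A and TIG1B. In TIG1A the methods' t-test called 1 after Benjamini-Hochberg and 4 unadjusted, and leaving out single arrays gave 2 to 3. Here and below, that t-test was run without the fold change filter that the methods also set, so its counts are not those of the study. In TIG1B the count was 0 without a filter, with the 6 arrays of the comparison alone, with the replicate number as a block, with the methods' t-test after Benjamini-Hochberg and without TIG1A and TIG1B replicate 1, whose 3′ to 5′ GAPDH ratios were 1.00 and 1.01, above those of the other 7 arrays; it was 2 with the 75th percentile filter, 3 with the unadjusted methods' t-test and 0 to 1 without single arrays. Between TIG1A and TIG1B it was 0 under the same 5 settings, 2 with a trended robust prior, 5 with the unadjusted methods' t-test and 0 to 1 without single arrays. In the settings with 0, between 2 and 5 members passed at an unadjusted p under 0.05. FES in TIG1A passed under all 19 alternatives run. LCK in TIG1A was lost with the methods' t-test (adjusted p = 0.0732) and dropped by the 75th percentile filter. PTPN6 in TIG1A had adjusted p-values from 0.0104 to 0.188 and passed in 6 of 19, among them quantile scaling (0.0444) and median centring (0.0324).

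Of 1125 single values recomputed, 1049 kept direction and call, 21 lost the call, 17 gained it and 38 changed sign, none of these past the threshold; the cause was not tested. Median centring moved the median of all log2 fold changes to 0.12 in both lines and turned SRC 1558211_s_at (0.029), FER 227579_at (0.078) and CSK (0.047) in TIG1A, and SRC 213324_at (0.0012), YES1 202932_at (0.11) and LCK (0.059) in TIG1B; quantile scaling turned LCK in TIG1B (0.039). Without TIG1A and TIG1B replicate 1, SRC 1558211_s_at in TIG1A (0.33), CSK in TIG1B (0.096), and FYN 212486_s_at (0.12), FER 232064_at (0.014) and CSK (−0.19) between TIG1A and TIG1B turned. Leaving out single arrays gave log2 ranges across 0 in TIG1A for SRC 1558211_s_at (−1.15 to 0.56), SRC 221284_s_at (−0.75 to 0.10), YES1 202933_s_at (−0.015 to 0.11), FYN 210105_s_at (−0.041 to 0.099) and FYN 212486_s_at (−0.30 to 0.51). In TIG1B it did so for SRC 1558211_s_at (−0.64 to 1.07), SRC 221284_s_at (−0.11 to 1.02), FYN 212486_s_at (−0.10 to 0.70), FYN 243006_at (−0.0027 to 0.59), LCK (−0.23 to 0.041) and CSK (−0.44 to 0.096). Between TIG1A and TIG1B it did so for LYN 202625_at (−0.32 to 0.089), FYN 212486_s_at (−0.42 to 0.035), FYN 216033_s_at (−0.30 to 0.25), FER 206412_at (−0.34 to 0.46), FER 232064_at (−0.13 to 0.033) and CSK (−0.21 to 0.33).

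Over all probe sets, 1818 were called in TIG1A, 535 in TIG1B and 125 between them. In TIG1A the count ranged from 59 without a filter to 3601 with the 75th percentile filter (6150 with the unadjusted methods' t-test), in TIG1B from 2 with the replicate block to 1794 (4594), and between the lines from 0 to 676 (4775). Median centring changed the split of higher and lower calls to 1274 and 357 in TIG1A, against 858 and 960, and to 251 and 105 in TIG1B, against 210 and 325. The replicate block gave 637 calls in TIG1A, 2 in TIG1B and 0 between them. Deviations of same-numbered arrays correlated at 0.049 to 0.19 between TIG1A and TIG1B and at −0.037 to 0.0085 with control, so the numbers were not taken to pair the arrays. Dim probe sets, LCK among them, limit what the signal can show.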

Other observations

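PTPN6 lies beside genes that were not part of the neighbour rule, since PTPN6 did not pass, and that were looked at after their values had been seen. In TIG1A against control, the nearby C12orf57 had a log2 fold change of 1.01 (limma adjusted p = 0.0221), ENO2, which encodes neuronal enolase, 0.82 (adjusted p = 0.0325), and ATN1, a transcriptional corepressor gene, −1.60 (adjusted p = 0.0116). In TIG1B the values were 0.67 for C12orf57 (adjusted p = 0.102), −0.35 for ENO2, and −1.71 for ATN1 (adjusted p = 0.0179). The other measured neighbours, MIR200CHG, PHB2 and EMG1, passed in neither line. Their log2 fold changes in TIG1A were 0.51, −0.0085 and −0.25 (limma adjusted p = 0.296, 0.982 and 0.337). Passing neighbours were not particular to PTPN6. Beside other members that did not pass, ULK3 near CSK, FBXL17 near FER and NDC80 near YES1 passed in TIG1A. Their log2 fold changes there were −0.86, 1.14 and −0.65 (limma adjusted p = 0.0363, 0.0452 and 0.0330). Over all probe sets, 6.06% passed in TIG1A and 1.78% in TIG1B.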
